A study of Mus musculus with 16 samples.

Results

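Splicing factors of 3 families were followed through sleep disruption (SD) in mouse somatosensory cortex. The members are the genes whose symbol begins with Srsf or Rbm and a digit, or with Hnrnp, without Rbm3 and without symbols of pseudogenes (-ps), counted in 1 or more of the 12 libraries. Of the 24421 genes in the deposited tables, 68 met this rule, 11 in the Srsf family, 20 in the Hnrnp family and 37 in the Rbm family. A further 2 symbols matched but had no read. One of the 37 Rbm symbols, Rbm3os, is an antisense RNA and codes for no RNA-binding protein.

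The 4 groups held 3 libraries each, every library from a separate mouse as far as the labels say. CTL-WT were C57BL/6 mice of wild-type genotype left undisturbed, and SD-WT had their sleep disrupted by handling for 8 h, from zeitgeber time (ZT) 20 to ZT4. CTL-AcPbKO and SD-AcPbKO were AcPb-/- mice, which lack the brain isoform of the interleukin-1 receptor accessory protein, under the same 2 conditions. All mice were 2 to 3 months old and collected at ZT4, their strains had been bred in house for 5 to 7 generations, and the labels call all of them male. The question was how SD and genotype each relate to the transcript levels of these splicing factors, and whether the SD effect differed between the genotypes.

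SR proteins, encoded by the Srsf genes, bind exons through an RNA recognition motif and recruit the spliceosome through a domain rich in arginine and serine, so that they mostly favour exon inclusion. The hnRNPs coat nascent transcripts and often act against exon inclusion, besides roles in mRNA export, stability and transport in neurons. Rbm symbols mark proteins with an RNA recognition motif that share little else, among them spliceosome subunits, alternative splicing regulators, a core protein of the exon junction complex and adaptors of RNA methylation. Many SR protein and hnRNP genes hold a poison exon that lowers their own mRNA through nonsense-mediated decay. Gene-level read counts do not separate such isoforms, so splicing itself was not measured here.

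Sequence just before the transcription start is shown for members at or towards the ends of each family's range of SD effects. For each family the member with the highest and the lowest mean log2 fold change over the SD comparisons was taken, among members with a mean normalised count of at least 100. Stretches that overlapped an annotated protein-coding exon were passed over, among them that of Rbm28, and no Rbm member with a negative mean was left to print. Each is the 200 bases before the RefSeq start on GRCm38.p6, 5′ to 3′ on the gene's strand. Srsf5 lies at chr12:80945299-80945498 on the plus strand, partly inside an exon of the noncoding RNA Gm20337. Srsf2 lies at chr11:116853095-116853294 on the minus strand, Hnrnpa1 at chr15:103240197-103240396 on the plus strand, Hnrnpa0 at chr13:58128557-58128756 on the minus strand and Rbm41 at chrX:139998596-139998795 on the minus strand. Capitals mark CCAAT boxes (CCAAT), GC boxes (GGGCGG), ETS sites (CCGGAAG), cores of the cAMP response element (CRE core, TGACG) and TATA boxes (TATAAA), on either strand and with overlapping matches merged.
Srsf5: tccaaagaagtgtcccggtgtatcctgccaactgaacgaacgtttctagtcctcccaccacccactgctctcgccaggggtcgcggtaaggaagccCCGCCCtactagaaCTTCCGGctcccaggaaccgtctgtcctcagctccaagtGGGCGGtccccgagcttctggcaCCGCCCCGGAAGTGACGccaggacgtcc
Srsf2: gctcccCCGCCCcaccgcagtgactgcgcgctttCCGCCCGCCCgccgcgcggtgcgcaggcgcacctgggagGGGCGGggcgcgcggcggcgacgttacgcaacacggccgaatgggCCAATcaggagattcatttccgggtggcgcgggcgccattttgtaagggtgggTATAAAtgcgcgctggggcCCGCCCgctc
Hnrnpa1: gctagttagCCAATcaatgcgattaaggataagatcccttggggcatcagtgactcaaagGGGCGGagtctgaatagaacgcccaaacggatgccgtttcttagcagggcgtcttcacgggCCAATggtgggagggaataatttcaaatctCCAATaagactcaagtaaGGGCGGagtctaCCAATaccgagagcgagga
Hnrnpa0: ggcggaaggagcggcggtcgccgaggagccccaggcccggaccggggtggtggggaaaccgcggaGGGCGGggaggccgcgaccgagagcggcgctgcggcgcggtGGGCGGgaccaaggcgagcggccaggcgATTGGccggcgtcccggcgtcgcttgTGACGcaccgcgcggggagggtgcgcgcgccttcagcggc
Rbm41: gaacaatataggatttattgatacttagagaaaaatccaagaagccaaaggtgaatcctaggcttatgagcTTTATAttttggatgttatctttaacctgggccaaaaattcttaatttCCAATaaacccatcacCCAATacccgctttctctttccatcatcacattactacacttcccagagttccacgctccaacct
Srsf5 and Srsf2, whose log2 fold changes had opposite signs, both carried GC boxes, 3 in Srsf5 and 5 in Srsf2. The stretch of Srsf5 also held 2 ETS sites and 1 CRE core, and that of Srsf2 held 1 CCAAT box and 1 TATA box. Hnrnpa1 had 4 CCAAT boxes and 2 GC boxes, whereas Hnrnpa0 had 1 CCAAT box, 2 GC boxes and 1 CRE core. Rbm41 had no GC box, 2 CCAAT boxes and 1 TATA box.

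A RefSeq promoter, 250 bases before to 50 bases after the start, was matched for 59 of the 68 members. The CRE core TGACG was in 29 of the 59 promoters (49.2%), against 27% of the 14733 promoters of all genes tested. It was in 13 of 25 promoters of members that rose after SD in both genotypes and in 3 of 4 of those that fell in both. Among members that passed the threshold in neither it was in 9 of 22 promoters. The full cAMP response element TGACGTCA, which contains the CRE core, was in 0 of 59 member promoters and in 2.72% of all promoters. CCAAT boxes were in 49.2% of member promoters and 38.1% of all promoters, and GC boxes in 62.7% and 53.6%. ETS sites were in 18.6% and 13.4%, the E-box CACGTG in 13.6% and 8.97%, and TATA boxes in 13.6% and 9.62%. The AP-1 site TGANTCA was in 3.39% and 6.31%, the heat shock element GAANNTTC in 6.78% and 6.39%, and the palindromic NRF1 site in 0 of 59 member promoters and 1.55% of all promoters. Member promoters had a median GC content of 62%, against 58.7% over all promoters. In all, 10 motifs were searched on both strands. These are matches of letters in a window and were not tested.

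Before the comparisons, a few properties of the libraries matter. The totals on genes were 32.9 to 41.6 M reads in CTL-WT, 58.8 to 71.8 M in SD-WT, 26.5 to 35.7 M in CTL-AcPbKO and 63.4 to 71.9 M in SD-AcPbKO, so every SD library was deeper than every control library. Although the labels call all mice male, 2 of 3 control libraries of each genotype had 25352 to 39358 reads of Xist, the RNA of the inactive X chromosome, and at most 2 reads of the Y-linked genes counted. The other control library of each genotype and all 6 SD libraries had at most 13 Xist reads and at least 5105 Y-linked reads. Fits with a term for Xist and without those 4 libraries are given beside the counts. Neuronal markers (Snap25, Syt1, Rbfox3, Slc17a7, Gad1, Gad2) summed to 340200 to 396600 normalised counts in every library. Of these 6 genes, 1 rose and 0 fell after SD in each genotype, with median log2 fold changes of 0.067 in wild-type and 0.162 in AcPb-/- mice. Oligodendrocyte markers fell in 4 of 5 genes after SD in wild-type mice and in 1 of 5 in AcPb-/- mice, with summed levels of 101100 to 126800 in CTL-WT, 81810 to 112300 in SD-WT, 51690 to 117600 in CTL-AcPbKO and 66100 to 98660 in SD-AcPbKO. Microglial markers fell in 1 of 5 and 2 of 5 genes, and choroid plexus markers summed to 17380 in 1 SD-AcPbKO library against at most 482.7 in the controls. Of 5 striatal markers, 2 fell in wild-type and 0 in AcPb-/- mice, with median log2 fold changes of -0.609 and 0.364. Of 5 astrocyte markers, 1 rose and 2 fell in wild-type mice, and 1 rose and 1 fell in AcPb-/- mice. Of 4 endothelial markers, 2 rose and 1 fell in each genotype. The part of these differences in the results below was not tested. In bulk tissue, fewer cells of a type and less RNA per cell cannot be told apart.

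Levels were first compared between genes as normalised counts per kilobase of exon, with the 12 libraries scaled together. In CTL-WT the most abundant member was Srsf5 at 2193 ± 117 (SD, n = 3), followed by Hnrnpk at 2175 ± 99.8, Hnrnpa2b1 at 2101 ± 83.7, Hnrnpul2 at 2008 ± 68.9 and Hnrnpa0 at 1955 ± 40.4. Neighbours in this order differed by less than the larger of their SDs, except Hnrnpa2b1 and Hnrnpul2, whose gap slightly exceeded it. The highest Rbm member was Rbm39, a coactivator and splicing factor related to the large U2AF subunit, at 1221 ± 53.1. Hnrnpa1, the best known splicing silencer of the group, stood at only 112 ± 5.44, and 25.9% of the 100-base stretches of its exons recurred in processed copies such as Gm10052, so its count is uncertain. The lowest members were Rbm44 at 0.40 ± 0.39 and Rbm47 at 4.14 ± 0.85, and Rbm44 had only about 3 normalised counts a library.

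After SD in wild-type cortex, more splicing factor transcripts rose than fell, and many did not pass the test. Of the 68 members, 32 rose, 5 fell and 31 did not pass in SD-WT against CTL-WT (limma on log2 normalised counts, Benjamini-Hochberg adjusted p under 0.05 over all 20417 genes tested), where 13.2% of all genes tested rose and 12.2% fell. Among genes with a mean normalised count of at least 100, a range that held 63 members and all 37 that passed, 18.7% rose and 16.5% fell. The median log2 fold change was 0.212 over the members and -0.004 over all genes, whatever their count. By family, 6 of 11 Srsf members rose and 0 fell, 10 of 20 Hnrnp members rose and 2 fell, and 16 of 37 Rbm members rose and 3 fell. In 35 members every SD-WT library lay above every CTL-WT library and in 7 below, against 20.5% and 19.7% of all genes (40.2% in either direction). An unadjusted p under 0.05 was found for 37.3% of all genes and 42 members. Without SD-WT replicate 2 the counts were 21 higher and 3 lower, with 9 rather than 16 Rbm members higher. The lower members numbered 3 without CTL-WT replicate 2 or SD-WT replicate 1 and 8 without SD-WT replicate 4, where Srsf2, Srsf3 and Srsf9 passed too, and the higher Rbm members 10 without CTL-WT replicate 2 or SD-WT replicate 1. With a term for libraries with Xist reads, in a fit of all 12 libraries, 28 rose and 4 fell, and the calls of Hnrnpul1 (adjusted p = 0.108), Hnrnpul2 (0.0915), Rbm15 (0.0951), Rbm27 (0.0802) and Rbm33 (0.164) were lost. With only the 4 libraries without Xist, 1 control against 3 SD libraries, the median log2 fold change of the members was 0.193. Calls are not given for that fit, as 1 control has no spread. The shares over all genes above come from the fit with every library of both groups and no added term. None are given for the other fits.

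The AcPb-/- cortex gave a similar count. In SD-AcPbKO against CTL-AcPbKO, 31 members rose, 5 fell and 32 did not pass, where 14.1% and 13.3% of the 20574 genes tested did. The median log2 fold change was 0.199 over the members and 0.014 over all genes, whatever their count. Of the families, 8 of 11 Srsf members rose and 1 fell, 10 of 20 Hnrnp members rose and 2 fell, and 13 of 37 Rbm members rose and 2 fell. The groups did not overlap for 41 members that were higher and 8 that were lower after SD, against 21.7% and 20.7% of all genes (42.3% in either direction), and 38.9% of all genes had an unadjusted p under 0.05. The count of higher Srsf members was 5 without CTL-AcPbKO replicate 4, SD-AcPbKO replicate 2 or SD-AcPbKO replicate 4. With the term for Xist, 27 members rose and 4 fell, and the calls of Hnrnpul1 (adjusted p = 0.15), Rbm14 (0.143), Srsf2 (0.057), Srsf4 (0.141) and Srsf6 (0.0661) were lost. With only the 4 libraries without Xist, again with 1 control, the median log2 fold change of the members was 0.211. Here too, shares over all genes are given only for the fit with every library and no added term.

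**Figure D1:**
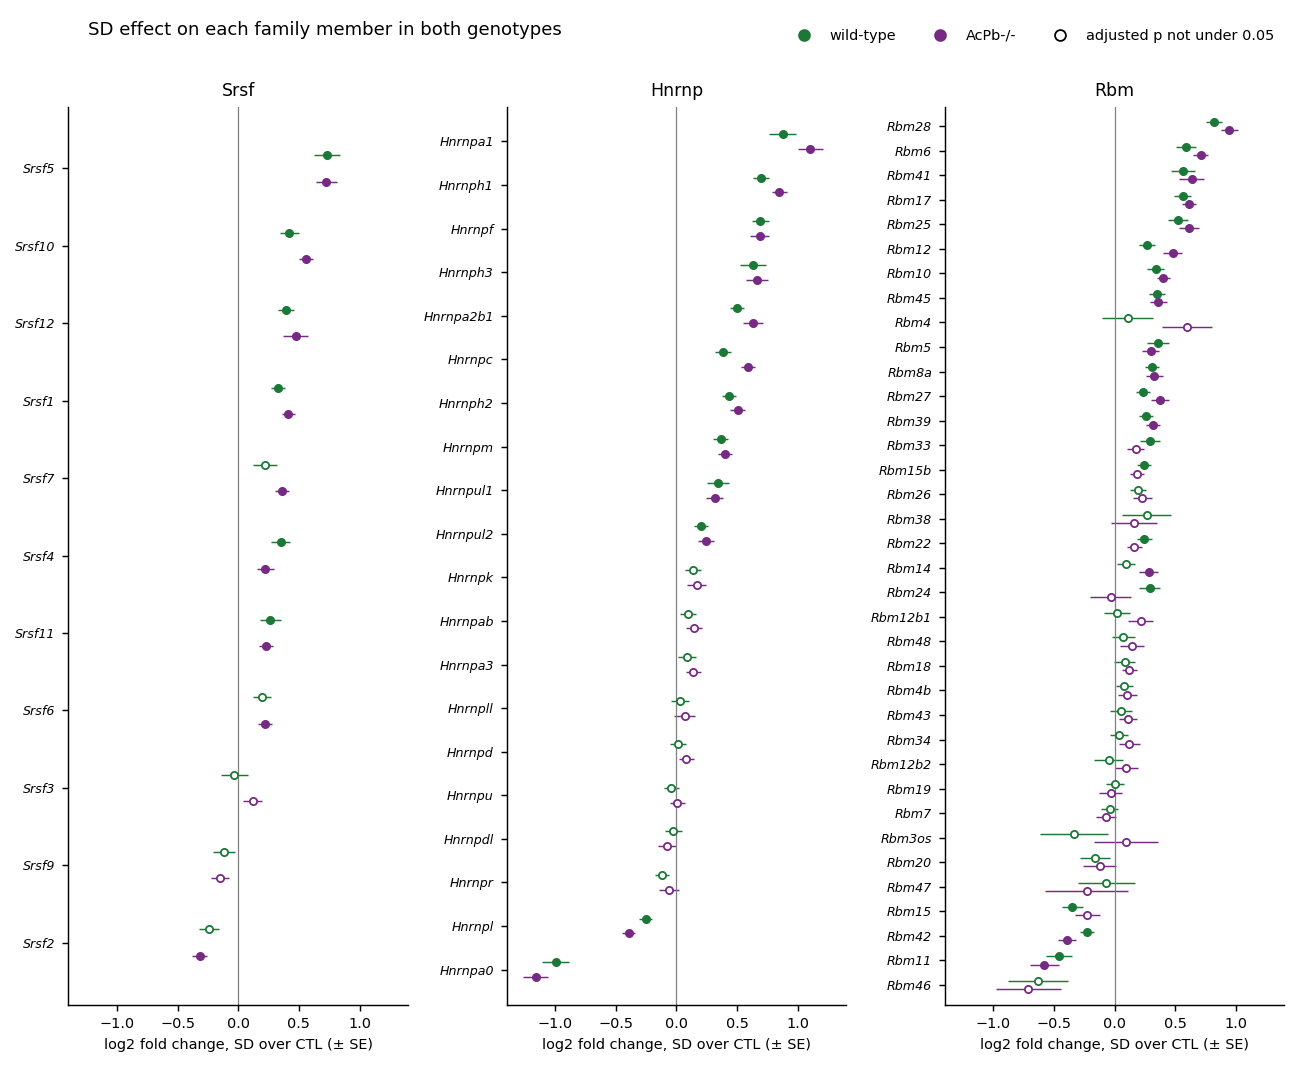
Log2 fold change of SD over undisturbed controls (horizontal axis, with SE) for each member with a mean normalised count of at least 10, by family, in wild-type (green) and AcPb-/- mice (purple), 3 libraries a group. Filled points passed the adjusted p threshold of 0.05, and they lie mostly to the right of 0, with Hnrnpa1 and Rbm28 highest and Hnrnpa0 lowest.

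In the Srsf family, Srsf5 had the largest rise. Its normalised counts were 8493, 9084 and 9455 in CTL-WT and 12340, 15860 and 16990 in SD-WT. In AcPb-/- mice they were 8509, 8918 and 9437 undisturbed and 13330, 14450 and 16870 after SD. The groups did not overlap in either genotype, and the spread between SD libraries was several times that between controls. The log2 fold change was 0.73 ± 0.11 (SE) in wild-type mice (fold 1.66, adjusted p = 0.00134) and 0.73 ± 0.09 in AcPb-/- mice (fold 1.66, adjusted p = 0.00116). Values of the 2 genotypes come from separately scaled tables and are compared as fold changes only.

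Srsf10 and Srsf12, atypical SR proteins that can repress splicing, came next. Srsf10 had 2743, 3052 and 3254 normalised counts in CTL-WT and 3833, 3940 and 4330 in SD-WT, and 2499, 2545 and 2582 in CTL-AcPbKO and 3594, 3646 and 4008 in SD-AcPbKO. Every SD library thus lay above every control, by 0.42 ± 0.08 on the log2 scale (adjusted p = 0.00368) and 0.56 ± 0.06 (adjusted p = 0.000854). Srsf12 had 870.9, 904.4 and 929.3 in CTL-WT and 1161, 1183 and 1212 in SD-WT, and 800.6, 936.1 and 952.9 in CTL-AcPbKO and 1091, 1288 and 1359 in SD-AcPbKO. These groups were also apart, with log2 fold changes of 0.39 ± 0.07 (adjusted p = 0.00268) and 0.47 ± 0.10 (adjusted p = 0.0108, and 0.0551 without SD-AcPbKO replicate 2).

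Srsf1, the prototype SR protein, had 8428, 8905 and 8992 normalised counts in CTL-WT and 10650, 10960 and 11410 in SD-WT. It had 7818, 7867 and 7928 in CTL-AcPbKO and 10150, 10540 and 10750 in SD-AcPbKO, so the controls varied little and SD libraries were all higher, with log2 fold changes of 0.33 ± 0.06 (adjusted p = 0.00339) and 0.41 ± 0.05 (adjusted p = 0.00128). Srsf4, an SR protein with a long RS domain, rose from 596.1, 608.7 and 657.1 to 751.3, 800.1 and 819.9 in wild-type mice (0.35 ± 0.08, adjusted p = 0.0102) and by 0.22 ± 0.07 in AcPb-/- mice (adjusted p = 0.0436). The wild-type call of Srsf4 was lost without CTL-WT replicate 2 or SD-WT replicate 2 (adjusted p up to 0.0517). Its adjusted p in AcPb-/- mice lay between 0.0611 and 0.137 whichever library was left out, at 0.0896 with scaling by totals and at 0.0579 in DESeq2. Of the 100-base stretches of Srsf4, 36.3% recur in the antisense gene Gm12992. Srsf11, linked to inclusion of neuronal microexons, passed in both genotypes (0.26 ± 0.09, adjusted p = 0.0495, and 0.23 ± 0.06, adjusted p = 0.0223), although its wild-type groups overlapped. Its call was lost without CTL-WT replicate 1 or 2 or SD-WT replicate 1 or 2 (adjusted p up to 0.183) and without CTL-AcPbKO replicate 4 or SD-AcPbKO replicate 2 or 4 (up to 0.0927). In wild-type mice it was also lost with pseudocounts of 0.1 (0.0546) and 10 (0.0613), scaling by totals (0.0921) and thinned reads (0.0589).

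Srsf6 and Srsf7 passed in AcPb-/- but not in wild-type mice, and their interaction with genotype did not pass. Their log2 fold changes were 0.20 ± 0.07 (adjusted p = 0.0766) and 0.22 ± 0.10 (adjusted p = 0.131) in wild-type mice and 0.22 ± 0.06 (adjusted p = 0.0201) and 0.36 ± 0.05 (adjusted p = 0.00243) in AcPb-/- mice. The call of Srsf6 was lost without CTL-AcPbKO replicate 4 or 5 or SD-AcPbKO replicate 4, where adjusted p reached 0.0807, and with scaling by totals (0.0616), and Srsf6 passed in wild-type mice in the fit of all 12 libraries (0.0472). Srsf2, which binds exonic enhancers, was the single Srsf member to fall. It had 4444, 5014 and 5174 normalised counts in CTL-WT and 3809, 4032 and 4534 in SD-WT, where the groups overlapped (-0.24 ± 0.08, adjusted p = 0.0501, which became 0.00975 without SD-WT replicate 4 and 0.0268 without CTL-WT replicate 1). It passed as lower in wild-type mice in edgeR (0.0411), DESeq2 (0.0262), the fit of all 12 libraries (0.0339), with scaling by totals (0.0404), with a minimum mean of 10 (0.0443) and with GC and length trends removed (0.0498). In AcPb-/- mice it fell from 4681, 4681 and 4801 to 3540, 3815 and 4028 with no overlap (-0.32 ± 0.06, adjusted p = 0.00658). Of the 100-base stretches of Srsf2, 16.6% recur in Mettl23 and Mfsd11, which overlap its exons on the opposite strand. Srsf3 and Srsf9 did not pass in either genotype, with log2 fold changes of -0.03 and 0.12 for Srsf3 and -0.12 and -0.15 for Srsf9. In wild-type mice without SD-WT replicate 4 both passed as lower, at -0.18 (adjusted p = 0.0338) and -0.21 (adjusted p = 0.0349).

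**Figure D2:**
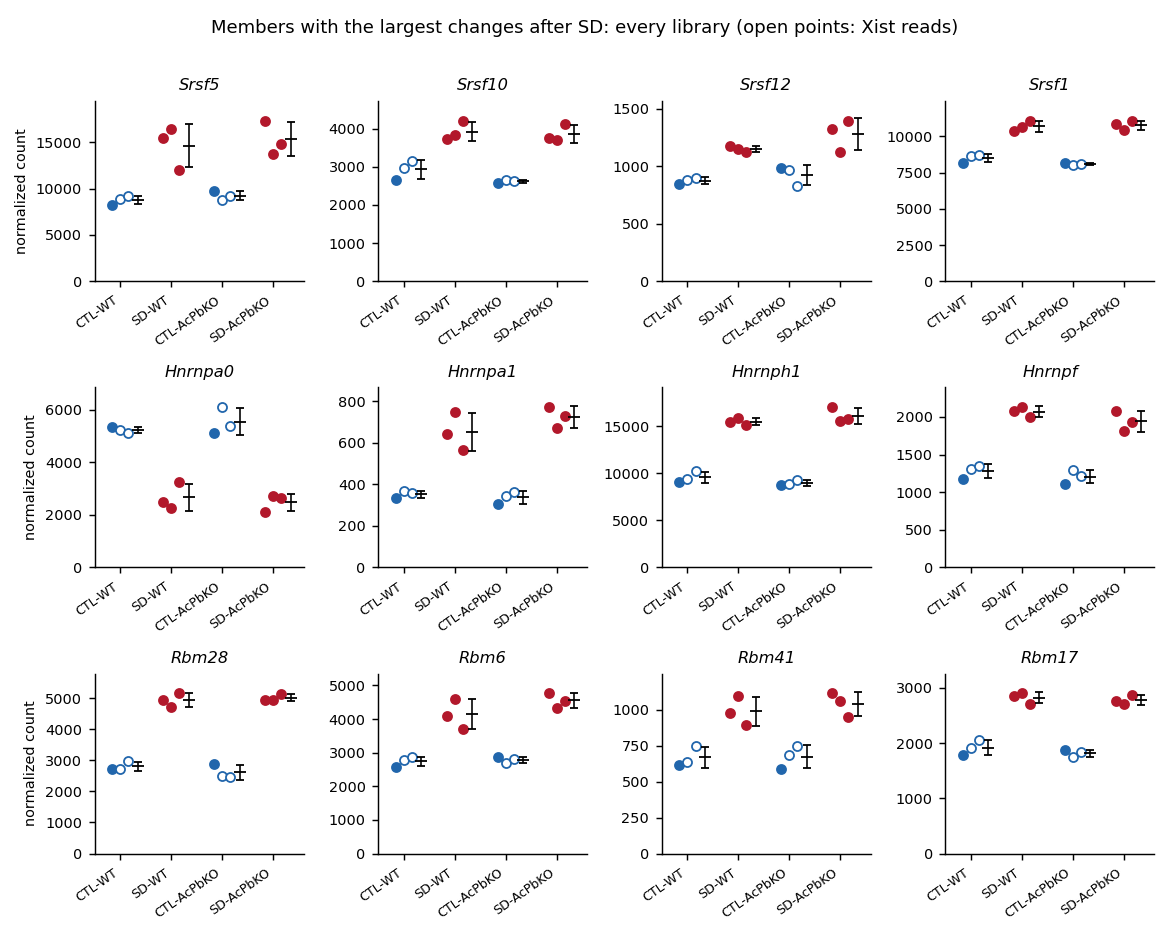
Normalised count (vertical axis, from 0, all 12 libraries scaled together) in every library for the 4 members of each family with the largest mean change after SD among those past the threshold in both genotypes. Points are single libraries, blue for controls and red for SD, open where the library had Xist reads, and the bar beside each group is the mean ± SD. In all 12 panels the SD libraries of each genotype lie on one side of their controls, above them except for Hnrnpa0.

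The Hnrnp family held both extremes. Hnrnpa0, which binds AU-rich elements in mRNAs of stress and inflammatory response genes, had the largest fall. Its normalised counts were 5284, 5402 and 5496 in CTL-WT and 2334, 2549 and 3340 in SD-WT, and 4980, 5225 and 5939 in CTL-AcPbKO and 2053, 2562 and 2629 in SD-AcPbKO. No SD library came near a control. The log2 fold change was -0.99 ± 0.11 in wild-type mice (fold 0.502, adjusted p = 0.000431) and -1.16 ± 0.10 in AcPb-/- mice (fold 0.447, adjusted p = 0.00061). Hnrnpa1 had the highest rise, with 344.2, 368.9 and 378.3 in CTL-WT and 583.6, 662.8 and 772.9 in SD-WT, and 294.9, 336 and 352.9 in CTL-AcPbKO and 652.6, 708.5 and 753.9 in SD-AcPbKO. The groups were far apart in both genotypes, with log2 fold changes of 0.88 ± 0.11 (fold 1.84, adjusted p = 0.000776) and 1.10 ± 0.10 (fold 2.15, adjusted p = 0.00061).

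The members that bind runs of G, Hnrnph1, Hnrnph2, Hnrnph3 and Hnrnpf, all rose in both genotypes. Hnrnph1 had 9330, 9699 and 10570 normalised counts in CTL-WT and 15620, 15880 and 16390 in SD-WT. In AcPb-/- mice it had 8503, 8652 and 9026 undisturbed and 15130, 15330 and 16650 after SD. Both gaps were many times the spread within groups (0.70 ± 0.06, adjusted p = 0.000213, and 0.85 ± 0.06, adjusted p = 0.000444). Hnrnpf had 1216, 1348 and 1397 in CTL-WT and 2051, 2137 and 2203 in SD-WT, and 1082, 1184 and 1252 in CTL-AcPbKO and 1756, 1881 and 2030 in SD-AcPbKO. Its groups did not overlap either (0.69 ± 0.07, adjusted p = 0.000293, and 0.69 ± 0.08, adjusted p = 0.00102), although 49.4% of its 100-base stretches recur in copies such as Gm6430. Hnrnph3 rose by 0.63 ± 0.11 and 0.66 ± 0.09 and the X-linked Hnrnph2 by 0.44 ± 0.06 and 0.50 ± 0.07 on the log2 scale.

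Hnrnpa2b1, which binds trafficking signals in dendritic mRNAs, rose by 0.50 ± 0.06 and 0.63 ± 0.08, and Hnrnpc, which covers uridine tracts of introns, by 0.38 ± 0.07 and 0.59 ± 0.06. Hnrnpm, Hnrnpul1 and Hnrnpul2 rose in both genotypes too, by 0.20 to 0.36 in wild-type mice and by 0.25 to 0.40 in AcPb-/- mice. The calls of Hnrnpul1 and Hnrnpul2 were lost without CTL-WT replicate 2 or 3, SD-WT replicate 1 or 2 or CTL-AcPbKO replicate 4, and that of Hnrnpul2 also without CTL-AcPbKO replicate 5 or SD-AcPbKO replicate 2 or 4 and, in wild-type mice, with scaling by totals (adjusted p = 0.053). With the Xist term Hnrnpul1 was lost in both genotypes (0.108 and 0.15) and Hnrnpul2 in wild-type mice (0.0915). Hnrnpl, which binds CA repeats, was the other member to fall, from 6693, 6874 and 6939 in CTL-WT to 5567, 5750 and 5912 in SD-WT and from 6580, 6698 and 7172 in CTL-AcPbKO to 5092, 5185 and 5272 in SD-AcPbKO. Its groups did not overlap (-0.25 ± 0.05, adjusted p = 0.00839, and -0.39 ± 0.06, adjusted p = 0.00187). The remaining 8 members, Hnrnpa3, Hnrnpab, Hnrnpd, Hnrnpdl, Hnrnpk, Hnrnpll, Hnrnpr and Hnrnpu, passed in neither genotype, with log2 fold changes between -0.12 and 0.17, except that Hnrnpr passed as lower in wild-type mice with scaling by totals (-0.16, adjusted p = 0.0485). Hnrnpu, the scaffold protein of the nuclear matrix, had mean normalised counts of 22180 in CTL-WT and 21520 in SD-WT, a log2 difference of -0.04 ± 0.06.

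In the Rbm family the largest rise was that of Rbm28, a nucleolar protein of ribosome and snRNP assembly. It had 2785, 2809 and 3068 normalised counts in CTL-WT and 4874, 5084 and 5315 in SD-WT, and 2388, 2421 and 2802 in CTL-AcPbKO and 4799, 4823 and 4998 in SD-AcPbKO. Control and SD libraries were thus far apart with little spread, and the log2 fold change was 0.82 ± 0.06 (adjusted p = 0.000135) and 0.95 ± 0.07 (adjusted p = 0.000444). Rbm5, Rbm6 and Rbm10, related regulators of exon skipping, all rose in both genotypes. Rbm6 had 2662, 2848 and 2951 in CTL-WT and 3819, 4219 and 4751 in SD-WT, and 2603, 2731 and 2778 in CTL-AcPbKO and 4208, 4422 and 4649 in SD-AcPbKO. Its groups were apart by 0.59 ± 0.08 (adjusted p = 0.00109) and 0.71 ± 0.06 (adjusted p = 0.000523). The X-linked Rbm10 rose by 0.34 ± 0.07 and 0.40 ± 0.05, and Rbm5 by 0.36 ± 0.09 and 0.30 ± 0.07, a call lost without CTL-WT replicate 1 or 2, SD-WT replicate 1 or 2, CTL-AcPbKO replicate 4 or SD-AcPbKO replicate 4 (adjusted p up to 0.0802). Of the 100-base stretches of Rbm10, 23.2% recur in Gm12799, Gm15455 and Ndufb11.

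Rbm17, which takes part in the choice of 3′ splice sites, had 1832, 1973 and 2120 normalised counts in CTL-WT and 2792, 2942 and 3001 in SD-WT, and 1692, 1782 and 1816 in CTL-AcPbKO and 2624, 2687 and 2795 in SD-AcPbKO. The gap exceeded the spread in both genotypes (0.56 ± 0.07, adjusted p = 0.0007, and 0.62 ± 0.06, adjusted p = 0.00061). The X-linked Rbm41 had 634.9 in the CTL-WT library without Xist and 656.6 and 771.3 in those with it, against 918.9, 1007 and 1128 in SD-WT. In AcPb-/- mice it had 572 in the control without Xist, 663.5 and 722.3 in those with it, and 923.1, 1026 and 1086 after SD. Thus the controls with Xist lay nearer to the SD libraries than the control without it, and the log2 fold change was 0.57 ± 0.10 (adjusted p = 0.00347) and 0.63 ± 0.10 (adjusted p = 0.0032). Rbm25, which promotes exon inclusion and exclusion at regulated exons, rose by 0.53 ± 0.08 and 0.62 ± 0.08.

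Further Rbm members that rose in both genotypes were Rbm8a, a core protein of the exon junction complex (0.31 ± 0.06 and 0.33 ± 0.07), Rbm39 (0.26 ± 0.06 and 0.32 ± 0.06), Rbm45 (0.35 ± 0.07 and 0.36 ± 0.07), Rbm12 (0.27 ± 0.07 and 0.48 ± 0.08) and Rbm27 (0.23 ± 0.06 and 0.38 ± 0.08). Of these, Rbm12 shares 32.6% of its 100-base stretches with Gm28036 and Cpne1. In wild-type mice the calls of Rbm12, Rbm27 and Rbm39 were each lost without CTL-WT replicate 2, where adjusted p over the fits without 1 library reached 0.0852, 0.0769 and 0.0522. Rbm12 and Rbm27 were also lost without SD-WT replicate 2, Rbm12 without SD-WT replicate 1, and Rbm27 with the Xist term (0.0802). Past the threshold in wild-type but not in AcPb-/- mice were Rbm15b, Rbm22, Rbm24 and Rbm33, with log2 fold changes of 0.25 to 0.29 there and -0.03 to 0.18 in AcPb-/- mice. All 4 lost the call without SD-WT replicate 1 or 2, and also Rbm24 without CTL-WT replicate 1 or 2 and Rbm33 without CTL-WT replicate 2 or 3. Rbm24 was lost too in the fit of all 12 libraries (adjusted p = 0.186), with scaling by totals (0.0689) and with thinned reads (0.0588), and Rbm33 with the Xist term (0.164). Rbm15b passed in AcPb-/- mice with a pseudocount of 10 (0.045), a minimum mean of 10 (0.0434) and the fit of all 12 libraries (0.0187). There Rbm22 also passed in the fit of all 12 libraries (0.0302), Rbm33 without CTL-AcPbKO replicate 3 (0.0246) and Rbm15b without SD-AcPbKO replicate 3 (0.0359). Rbm14, a paraspeckle protein, passed in AcPb-/- but not in wild-type mice (0.10 ± 0.07 and 0.28 ± 0.08). It did not pass without CTL-AcPbKO replicate 4 or 5 or SD-AcPbKO replicate 2 or 3, with scaling by totals (0.055) or with the Xist term (0.143). The interaction test passed for none of these 5 members, so a difference between genotypes was not shown.

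The Rbm members Rbm11, Rbm15 and Rbm42 fell in wild-type mice. Rbm11, a splicing regulator enriched in brain, had 307.8, 330.4 and 355.9 normalised counts in CTL-WT and 233.9, 239.2 and 249.1 in SD-WT, and 284.3, 331.6 and 354.9 in CTL-AcPbKO and 206.5, 216.6 and 223.9 in SD-AcPbKO. The groups did not overlap (-0.46 ± 0.10, adjusted p = 0.0108, and -0.58 ± 0.12, adjusted p = 0.00813). Rbm42, a partner of hnRNP K, fell by 0.23 ± 0.06 in wild-type mice, a call lost without CTL-WT replicate 1 or 2 or SD-WT replicate 1 or 2, and by 0.39 ± 0.08 in AcPb-/- mice. As 71.3% of its 100-base stretches recur in the readthrough gene Gm21982, its count is uncertain. Rbm15, an adaptor of the RNA methylation complex, fell from 529.2, 533.2 and 549.3 in CTL-WT to 404, 411.1 and 452.6 in SD-WT (-0.35 ± 0.09, adjusted p = 0.0157, and up to 0.0705 without CTL-WT replicate 2 or SD-WT replicate 1 or 2 and 0.0951 with the Xist term). In AcPb-/- mice it had 406.2, 478.4 and 490.2 undisturbed and 373.9, 388.3 and 409.8 after SD, which overlapped (-0.23 ± 0.10, adjusted p = 0.138, and 0.0463 without CTL-AcPbKO replicate 3).

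The SD comparisons of the 2 genotypes share no library, so their calls can be set side by side. In both, however, every SD library was deeper than every control, and most controls but no SD library had Xist reads. Agreement between the genotypes therefore cannot tell SD apart from these shared differences. Past the threshold in both were 28 members that rose, 87.5% of those called in wild-type and 90.3% of those called in AcPb-/- mice, and 4 that fell (Hnrnpa0, Hnrnpl, Rbm11 and Rbm42). Of the 20013 genes tested in both, 10.2% rose and 9.16% fell in both. The log2 fold changes had the same sign in 61 of 68 members, and in 11450 of 13121 genes with a mean of at least 100. Across the 68 genes Pearson's r was 0.88 and Spearman's rho 0.868, against 0.905 and 0.891 across the 13121 genes. These are descriptions over genes, which are not independent replicates, and the effects correlated about as well over all genes as over the members.

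**Figure D3:**
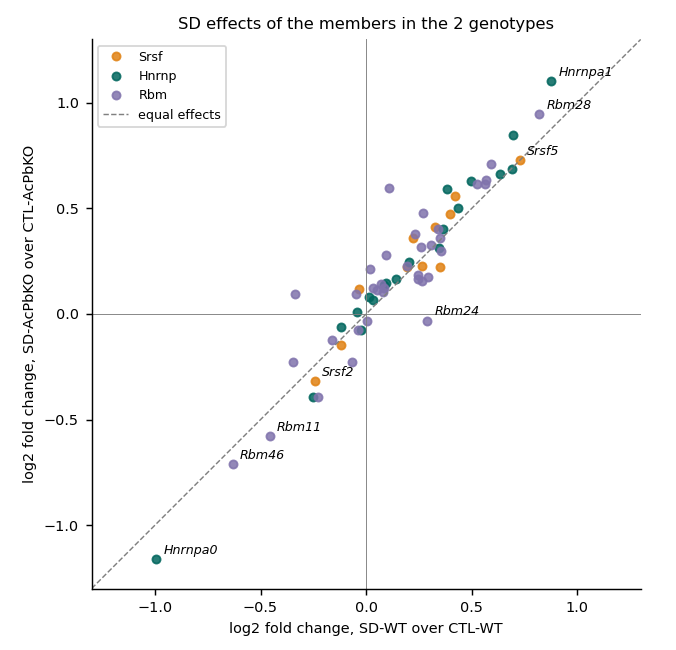
Log2 fold change after SD in AcPb-/- mice (vertical axis) against that in wild-type mice (horizontal axis) for each member with a mean normalised count of at least 10, coloured by family. Most points follow the dashed line of equal effects, and Hnrnpa0, at -0.99 and -1.16, stands apart from the rest.

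Between genotypes, no member passed in limma or edgeR. In CTL-AcPbKO against CTL-WT, 0 of 68 members passed in limma (11 at an unadjusted p under 0.05) and 0 in edgeR, where 4 of 20273 genes passed in limma (0.0197%) and 8.53% had an unadjusted p under 0.05. The lowest p was that of Srsf3, an SR protein that also acts in mRNA export. Its normalised counts were 3446, 3633 and 3721 in CTL-WT and 2830, 3022 and 3100 in CTL-AcPbKO. The groups did not overlap and differed by -0.27 ± 0.06 on the log2 scale (limma adjusted p = 0.278, edgeR 0.22), and DESeq2 on recovered reads called it as the single member (adjusted p = 0.0193). The share of all genes that DESeq2 called in this comparison is not given here, so that call has no background beside it. In 15 members every CTL-AcPbKO library lay below every CTL-WT library and in 3 above, against 7.04% and 7.35% of all genes (14.4% in either direction). In SD-AcPbKO against SD-WT, 0 members passed in limma, edgeR or DESeq2 (3 at an unadjusted p under 0.05, Rbm42, Rbm12b1 and Rbm8a), where 3 of 20621 genes passed in limma (0.0145%, of which 0.00485% higher and 0.0097% lower) and 6.13% had an unadjusted p under 0.05. In 2 members every SD-AcPbKO library lay above and in 4 below every SD-WT library, against 5.35% and 6.01% of all genes. Rbm42 was lower by 0.30 ± 0.08 on the log2 scale there (adjusted p = 0.488). Because these comparisons reuse the libraries of the SD comparisons, no overlap with them is given.

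The interaction of SD and genotype, fitted over 12 libraries, passed for 0 of 68 members in limma, edgeR and DESeq2, and for 0 of 20978 genes in limma, where 4% had an unadjusted p under 0.05. One member, Hnrnpc, had an unadjusted p under 0.05, with an SD effect larger by 0.20 ± 0.08 on the log2 scale in AcPb-/- mice (adjusted p = 0.986). Over the members the median difference between the SD effects was 0.039 and the median SE 0.106. The differences ran from -1.06 for Rbm44, with about 3 normalised counts a library, to 0.48 for Rbm4. The SEs leave room for modest differences between genotypes, so equal effects were not shown.

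The partners of these families in splicing were read from lists by function, whose counts stand against 13.2% of all genes higher and 12.2% lower in wild-type mice and 14.1% and 13.3% in AcPb-/- mice. Where the mean reached 100 these shares were 18.7% and 16.5%, and 20.2% and 18.7%. Of 9 SR protein kinases, which phosphorylate the RS domain, 4 rose and 0 fell in wild-type mice and 4 rose and 1 fell in AcPb-/- mice. Prpf4b rose by 0.38 ± 0.07 and 0.50 ± 0.07, Srpk1 by 0.28 ± 0.08 and 0.27 ± 0.06, and Clk1 by 0.37 ± 0.11 and 0.35 ± 0.07. The kinase that fell was Srpk3, at -0.44 ± 0.10 in AcPb-/- mice and -0.04 ± 0.12 in wild-type mice, and it was picked out after its values were seen. No kinase passed the interaction test (lowest limma adjusted p = 0.986), so a difference between genotypes was not shown. Of 18 SR-related proteins 8 rose and 0 fell in wild-type mice and 10 rose and 2 fell in AcPb-/- mice, led by Acin1 (0.52 ± 0.06 and 0.49 ± 0.05), Rsrc2 (0.59 ± 0.08 and 0.70 ± 0.08) and Pnn (0.41 ± 0.07 and 0.55 ± 0.07).

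Of 50 core spliceosome genes, 18 rose and 6 fell in wild-type mice and 18 rose and 5 fell in AcPb-/- mice, so that the lower genes were near the share over all genes. The helicase Dhx15 rose by 0.56 ± 0.05 and 0.59 ± 0.08, the Sm protein gene Snrpd3 by 0.74 ± 0.09 and 0.83 ± 0.09, and Cdc5l by 0.52 ± 0.07 and 0.64 ± 0.08. Of 15 other hnRNP-type genes, 5 rose and 2 fell in wild-type mice and 6 rose and 3 fell in AcPb-/- mice, with Taf15 (0.58 ± 0.07 and 0.62 ± 0.09) higher and Raly (-0.25 ± 0.07 and -0.39 ± 0.08) lower. Of 27 regulators known from tissue-type splicing, 6 rose and 1 fell in wild-type mice and 8 rose and 2 fell in AcPb-/- mice, among them Khdrbs3 (0.45 ± 0.06 and 0.54 ± 0.08), Celf5 (0.56 ± 0.08 and 0.48 ± 0.10) and Rbfox2 (0.28 ± 0.07 and 0.26 ± 0.07). The wild-type count of these regulators was near the share of higher genes where the mean reached 100.

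The exon junction and nonsense-mediated decay genes, which act on transcripts with a poison exon, gave 4 that rose and 0 that fell of 15 in wild-type mice and 6 and 2 in AcPb-/- mice. Upf2 rose by 0.58 ± 0.07 and 0.66 ± 0.07 and Rnps1 by 0.31 ± 0.06 and 0.29 ± 0.05. Of 9 nuclear long noncoding RNAs, 2 rose and 1 fell in wild-type mice and 3 rose and 0 fell in AcPb-/- mice, which is too few genes to set apart from the shares over all genes. Mirg changed by 0.52 ± 0.09 and 0.41 ± 0.07, Meg3 by 0.46 ± 0.12 and 0.47 ± 0.12, and Snhg14 by -0.76 ± 0.17 in wild-type mice and -0.27 ± 0.15 in AcPb-/- mice, where it did not pass. In each list the median log2 fold change was above that of all genes, from 0.077 to 0.212 in wild-type mice and from 0.108 to 0.246 in AcPb-/- mice. The lists hold between 9 and 50 genes and these are counts without a test of the list.

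**Figure D4:**
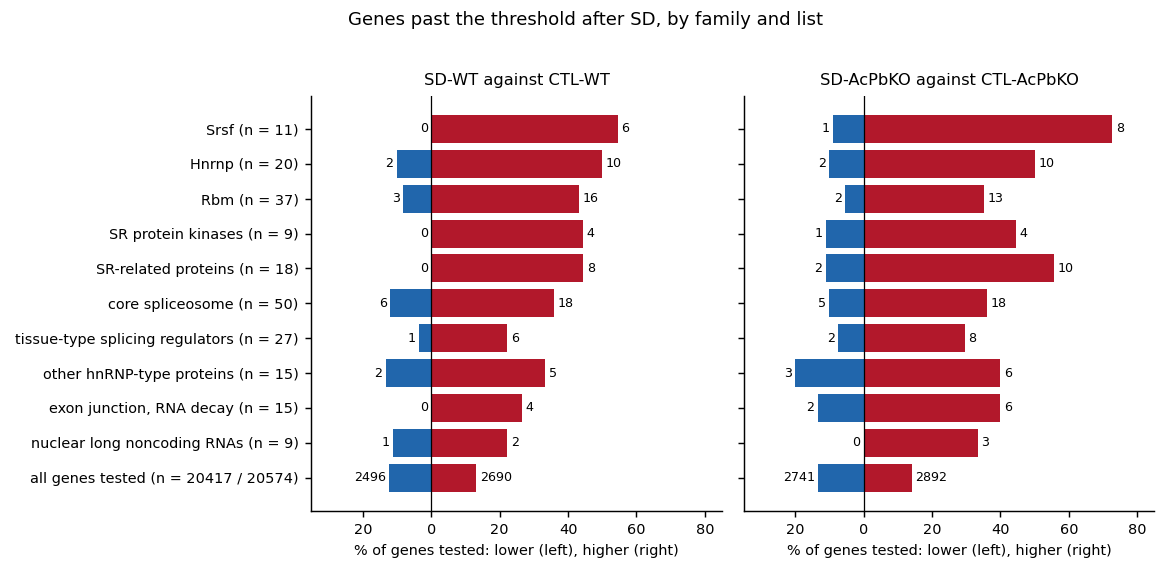
Share of genes tested (horizontal axis, percent) that passed the threshold after SD, higher to the right in red and lower to the left in blue, for the 3 families, the 7 related lists and all genes tested, in wild-type (left panel) and AcPb-/- mice (right panel), with the number of genes beside each bar. The Srsf bar reaches 6 and 8 of 11 genes, whereas the bars of all genes are of nearly equal length to both sides.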

How the data were processed

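RNA of somatosensory cortex was prepared with a stranded mRNA kit per the labels. The 5 tables deposited hold columns for 12 libraries, and 4 other samples of the labels were not analysed here. The submitters' processing notes name mm10, HISAT2 (version 2.2.1), featureCounts and DESeq2 (version 1.31.16), whereas the study's methods name HTSeq as the counter. The deposited signal values are read counts that the authors divided by a DESeq2 size factor per library, separately in each table. The authors' own comparisons (log2 fold change, its SE, Wald score, p-value and adjusted p-value), also deposited, were not used. Undoing the factors gave whole reads for 100.0% of 732630 values, within 0.01.

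As planned for normalised values, limma 3.58.1 in R 4.3.3 fitted log2(normalised count + 1) with its trend option. Genes without any read in a comparison were dropped, p-values were adjusted by Benjamini-Hochberg over the rest, and fold changes are on that scale. The interaction used all 12 libraries scaled together. No pair of libraries in a group agreed within sampling noise, so none was taken as a copy, and p-values cover only the spread between libraries. The targeted gene, Il1rap, had 933 to 2946 reads in every library, and a gene count does not show which isoform is missing.

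Alternatives were pseudocounts of 0.1 and 10, a minimum mean of 10, scaling by totals, edgeR 4.0.16 and DESeq2 1.42.0 on recovered reads, a joint fit with and without a term for Xist, the replicate number as a block, thinned reads (seed 1), removal of GC content and length trends (loess span 0.3), and each library left out. Fitting only libraries without Xist was added after the data were seen. The test was tried on simulated data. GENCODE M21 on GRCm38 held 95.8% of the symbols, including all 68 members, and every 100-base stretch of a member's exons was searched for elsewhere in the annotation's exons.

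Srsf and Hnrnp members could be named freely, Rbm members where past the threshold or among the 5 most abundant, and list genes up to 3 a list by adjusted p in wild-type mice. Values in every library are given for up to 4 members a family. Those of Srsf2, Srsf3, Hnrnpl, Rbm11 and Rbm15 were added, and Rbm4, Rbm12b1, Rbm44 and Rbm47 named, after their values were seen. Members and lists were chosen with earlier results of these data known. Protein sequences were not analysed here. Some list genes are not reported here. Other steps ran in Python 3.11.15 (NumPy 2.4.6; pandas 2.3.3; figures with matplotlib 3.10.9).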

Additional observations from a re-analysis of the deposited data

How the results depend on the processing

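No call of a member in the SD comparisons changed direction under any alternative run. Calls of 23 of 37 members in wild-type and 28 of 36 in AcPb-/- mice held in each fit that left out 1 library. In those fits the members higher numbered 21 to 33 and lower 3 to 8 in wild-type mice, with 9 to 17 Rbm members higher, and in AcPb-/- mice 24 to 31 were higher and 5 to 6 lower, with 5 to 7 Srsf members higher. Shares over all genes are not given for them. With the replicate number as a block, 0 members passed in either direction in any comparison it could be fitted to, in total or by family. The block left 1 residual degree of freedom in each comparison of 2 groups, and more in the interaction. Deviations of same-numbered libraries correlated at -0.0959 to 0.0756 in the SD comparisons, so no pairing by number was seen there. Between the SD groups of the 2 genotypes they correlated at 0.287 and 0.358, and at -0.599 between the controls. The control genotypes share only 1 number, so no block was fitted there. With only the 4 libraries without Xist of each genotype, 1 control against 3 SD libraries, the median member log2 fold change was 0.193 and 0.211. DESeq2 called 1 member lower between control genotypes, Srsf3, with no DESeq2 share over all genes given beside it.

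The sign of the log2 fold change turned for some named members in a genotype where they had not passed, namely Hnrnpd, Hnrnpdl, Hnrnpll, Rbm14 and Srsf3 in wild-type mice and Hnrnpdl, Hnrnpll, Hnrnpr, Hnrnpu and Rbm24 in AcPb-/- mice. The cause was not tested. In wild-type mice, scaling by totals gave -0.0309 for Hnrnpd and -0.0136 for Hnrnpll. The block gave -0.0436, 0.0551 and -0.0121 for Hnrnpd, Hnrnpdl and Hnrnpll. The Xist term gave 0.1116, -0.0151 and 0.0395 for Hnrnpdl, Rbm14 and Srsf3, and only libraries without Xist gave -0.0481, 0.1149 and 0.032 for Hnrnpd, Hnrnpdl and Srsf3. Leaving out 1 library gave -0.0235 to 0.057 for Hnrnpd, -0.0938 to 0.0406 for Hnrnpdl, -0.0472 to 0.0718 for Hnrnpll and -0.1833 to 0.058 for Srsf3. In AcPb-/- mice, scaling by totals gave -0.0298 for Hnrnpu, the Xist term gave 0.0569 for Hnrnpdl and 0.2203 for Rbm24, and only libraries without Xist gave 0.0567 and 0.3256. Leaving out 1 library gave -0.0171 to 0.136 for Hnrnpll, -0.1202 to 0.0224 for Hnrnpr, -0.0215 to 0.0385 for Hnrnpu and -0.2107 to 0.093 for Rbm24. Low counts limit Rbm44, Rbm46, Rbm47 and Rbm3os.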

Other observations

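The Sm proteins form the ring around the small nuclear RNAs of the spliceosome, and their genes split after SD, in a way chosen for mention after the values were seen. Snrpf rose by 0.94 ± 0.18 (SE) on the log2 scale in wild-type mice (mean normalised counts 218.1 in CTL-WT and 427.9 in SD-WT, adjusted p = 0.00491 in limma) and by 1.08 ± 0.14 in AcPb-/- mice. Snrpd1 rose by 0.50 ± 0.08 and 0.61 ± 0.09, beside Snrpd3 above. Snrpg changed by -0.68 ± 0.14 (525.3 in CTL-WT and 330.8 in SD-WT, adjusted p = 0.00683) and -0.94 ± 0.11, Snrpe by -0.61 ± 0.19 and -0.63 ± 0.12, Snrpd2 by -0.48 ± 0.13 and -0.46 ± 0.12, and Snrpb by -0.20 ± 0.06 and -0.35 ± 0.06, all past the threshold in both genotypes. Snrpn, at mean counts of 36.8 in CTL-WT and 41.5 in SD-WT, did not pass (0.18 ± 0.24 and 0.28 ± 0.30). Sf3b5, a small subunit of the branch-point complex, also fell, by 0.60 ± 0.09 and 0.72 ± 0.07, whereas Sf3b1 rose by 0.22 ± 0.06 and 0.24 ± 0.06. Reads shared with processed copies were not counted for these genes.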
